A study of Mus musculus with 6 samples.

Results

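miR-9 was followed through its 2 mature arms, mmu-miR-9-5p and mmu-miR-9-3p, and the 3 hairpins that can give rise to them, mmu-mir-9-1, mmu-mir-9-2 and mmu-mir-9-3. The members were chosen by name, and both arms are among the 902 mature miRNA rows, and the 3 hairpins among the 788 hairpin rows, of a count table with 61949 rows. Small RNA was sequenced from extracellular vesicles (EVs), membrane-bound particles that cells release. Astrocyte EVs came from primary cortical astrocytes of CD1 mice, cultured from the dorsal cortex of P4 pups, and NSC EVs came from primary neural stem cells (NSCs) of the neonatal subventricular zone of CD1 mice, with 3 libraries for each EV type. No genotype or treatment separated the groups, so the comparison was between the EVs of 2 cultured cell types. The astrocyte flasks had been rotated to detach microglia and oligodendrocytes, so the cultures were enriched rather than sorted. The astrocytes were split into medium described as exosome-free and later plated in medium that held fetal bovine serum. The NSC culture conditions are not given in the sources used here. The labels do not say that the libraries of a group came from separate cultures, and the p-values therefore cover no more than the spread among these 6 libraries, which may be technical.

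miR-9 is among the most abundant miRNAs of the developing brain and is known for its part in the switch of neural progenitors from division to neuronal differentiation. A miRNA hairpin is cut into a short duplex, and either strand can be loaded onto an Argonaute protein, where the seed (bases 2 to 8) pairs with target mRNAs. For miR-9 both strands are known to act, with the 5p arm repressing genes such as Nr2e1 and the 3p arm repressing genes such as Actl6a. EVs carry mature miRNAs out of cells together with fragments of other RNAs.

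The sequences of both arms are shown first, since they determine which reads can be assigned to miR-9 and to which locus. They were taken from RefSeq (GRCm38.p6), with the seed in capitals.
mmu-miR-9-5p: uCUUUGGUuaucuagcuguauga
mmu-miR-9-3p: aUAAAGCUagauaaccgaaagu
The 5p arm had 23 bases and the 3p arm 22 bases. Their seeds differed from each other, and neither seed was found in any other of the 1679 mature mouse miRNA names searched.

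The 3 hairpins are shown because both arms had the same sequence at all 3 loci, so that only the bases outside the arms tell the loci apart. The arms are in capitals, with the 5p arm first and the loop between them.
mmu-mir-9-1: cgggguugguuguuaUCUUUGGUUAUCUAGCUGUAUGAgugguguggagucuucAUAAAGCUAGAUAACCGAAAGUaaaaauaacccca
mmu-mir-9-2: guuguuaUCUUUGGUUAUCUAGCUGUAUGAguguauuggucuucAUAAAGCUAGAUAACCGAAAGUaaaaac
mmu-mir-9-3: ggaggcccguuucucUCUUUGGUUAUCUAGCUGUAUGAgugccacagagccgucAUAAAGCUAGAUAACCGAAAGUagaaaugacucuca
The hairpins were 89, 72 and 90 bases long in this order, with loops of 16, 14 and 16 bases. The longest run shared by mmu-mir-9-1 and mmu-mir-9-2 was 33 bases, and mmu-mir-9-3 shared at most 26 bases with either, runs that each held the whole 5p arm.

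Each locus lies on the plus strand within a long non-coding RNA gene (GENCODE annotation, GRCm38). mmu-mir-9-1 is at chr3:88215598-88215686, in an intron of Gm3764, where a second miRNA gene, Gm25641, is annotated on the opposite strand. mmu-mir-9-2 is at chr13:83738814-83738885, in an exon of C130071C03Rik. mmu-mir-9-3 is at chr7:79505264-79505353, in an intron of Mir9-3hg. The count table gave the hairpins the same positions but placed both mature arms only at the mmu-mir-9-2 locus, with the 5p arm at chr13:83738821-83738843 and the 3p arm at chr13:83738858-83738879.

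The table totals were 72359982 to 111851274 counts in the astrocyte EV libraries and 44620985 to 50898531 in the NSC EV libraries, of which mature miRNA rows took 0.212 to 0.357% in astrocyte EVs, against 0.348 to 0.538% in NSC EVs. Mature counts, the depth behind the values of both arms, ranged between 182075 and 399211 for astrocyte EVs and between 177093 and 259560 for NSC EVs, and 3 counts, the limit for a value of 0, were worth 7.515 to 16.94 counts per 1000000 mature miRNA counts (CPM). Astrocyte EV replicate 3 stood apart: its mature counts differed from those of replicates 1 and 2 by a chi-square of 432 and 382 per degree of freedom, against 25.2 between replicates 1 and 2 and 66.5 to 115 among NSC EVs. This measure also grows with depth, and replicate 3 held the most mature counts (399211). Results that rest on this library are given with and without it. Fragments of 5 of 5 astrocyte genes and 5 of 5 neural stem cell genes examined as a check of the labels had counts in all 6 libraries, and 1 of the 9 tested passed, where 9.78% of the 41308 rows other than hairpins passed in either direction. It was Gfap, an astrocyte filament gene, with a log2 fold change of 1.85 (edgeR adjusted p = 0.0263) and of 1.57 (0.0345) without astrocyte EV replicate 3. The call was lost without TMM scaling (0.183) and with the replicate numbers as a block (0.072). It was also lost when any of 4 other libraries was left out (0.0618 to 0.0891). The other astrocyte genes did not pass. Glul (0.56) and Aqp4 (0.15) had the same direction as Gfap, and Aldh1l1 (-0.18) and Slc1a3 (-1.15) the opposite one.

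The 5p arm was low in astrocyte EV replicates 1 and 2, intermediate in replicate 3 and among the 3 most abundant miRNAs in every NSC EV library. mmu-miR-9-5p had 262, 388 and 15329 counts in the astrocyte EV libraries, against 30807, 29480 and 15706 counts in the NSC EV libraries. As a share of mature counts these were 0.144% (95% Wilson interval, 0.128 to 0.162%), 0.185% (0.168 to 0.205%) and 3.84% (3.78 to 3.90%) in astrocyte EVs, and 11.9% (11.7 to 12.0%), 14.5% (14.3 to 14.6%) and 8.87% (8.737 to 9.002%) in NSC EVs. The astrocyte EV libraries were all below the NSC EV libraries, and the intervals, which cover counting error only, did not touch. By rank among mature miRNAs the 5p arm was number 63, 54 and 5 in astrocyte EVs and number 2, 2 and 3 in NSC EVs. In bulk EV RNA, fewer vesicles that carry miR-9 and fewer copies in each vesicle cannot be told apart.

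After scaling with trimmed mean of M-values (TMM) factors, miR-9-5p was at 1245, 1955 and 48244 CPM in astrocyte EVs and at 103304, 132450 and 97177 CPM in NSC EVs. Replicate 3 was 38.8 times astrocyte EV replicate 1 and 24.7 times astrocyte EV replicate 2, while the lowest NSC EV library was 2.01 times astrocyte EV replicate 3 and 49.7 times the higher of the other two astrocyte EV libraries. The spread within astrocyte EVs was therefore wider than the step between replicate 3 and the lowest NSC EV library. The means were 17148 ± 26932 CPM in astrocyte EVs and 110977 ± 18847 CPM in NSC EVs (SD, n = 3 each).

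Across the 6 libraries miR-9-5p did not pass the test, with a log2 fold change (astrocyte EVs over NSC EVs) of -2.69 (SE 1.31) and an adjusted p of 0.130 by edgeR's quasi-likelihood test over the 256 mature miRNAs tested. Of those, 48.0% passed at an adjusted p under 0.05 in either direction, and 25.8% were lower in astrocyte EVs. The groups of miR-9-5p did not overlap, which was so for 64.8% of the mature miRNAs tested. Without astrocyte EV replicate 3 the log2 fold change was -6.30 (SE 0.43, edgeR adjusted p = 1.28e-05), so that under the main settings the call depended on this library. With all 6 libraries kept it also depended on the method, filter and scaling, as given below. DESeq2 on all 6 libraries gave -2.75 with an adjusted p of 0.0137, and the exact two-sided permutation test of the shares gave p = 0.1, the smallest that 3 against 3 libraries allow.

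**Figure D1:**
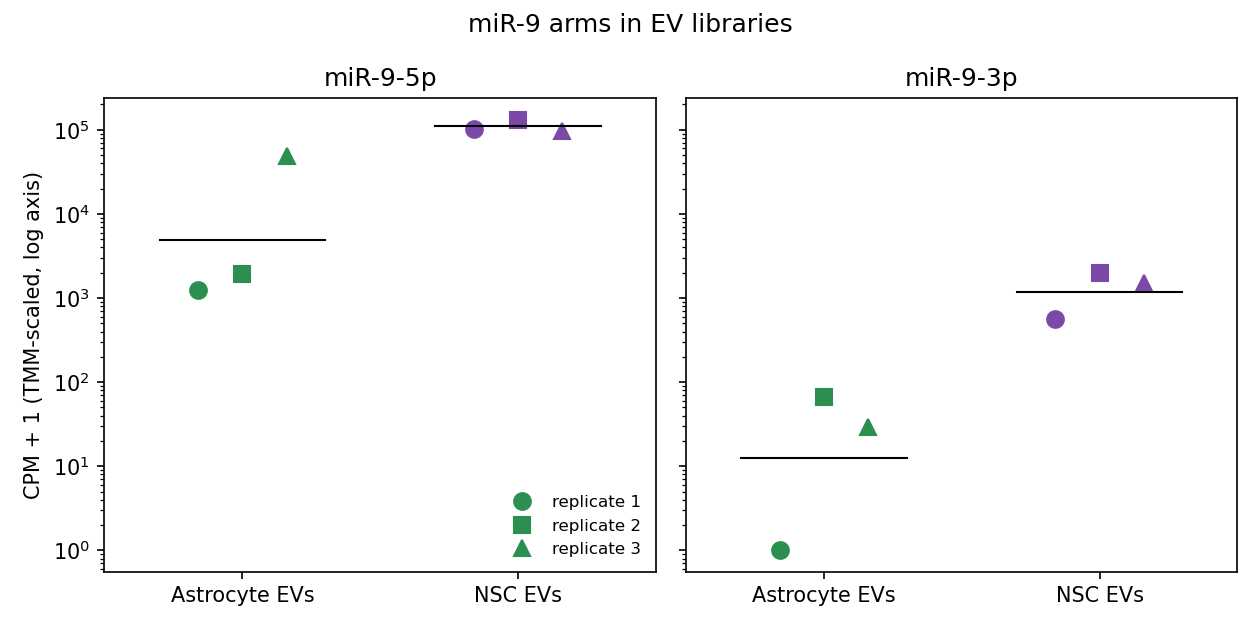
TMM-scaled CPM plus 1 on a log axis for miR-9-5p (left) and miR-9-3p (right), with 1 point per EV library, the symbol giving the replicate number, and a line at the mean of the log values. miR-9-5p of astrocyte EV replicate 3 (48244 CPM) lies far above the other astrocyte EV libraries (1245 and 1955 CPM), whereas miR-9-3p is at or below 65.5 CPM in every astrocyte EV library and at or above 563.3 CPM in every NSC EV library.

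The 3p arm was low in all 3 astrocyte EV libraries, replicate 3 included. mmu-miR-9-3p had 0, 13 and 9 counts in the astrocyte EV libraries, against 168, 441 and 242 counts in the NSC EV libraries. These were 0, 65.5 and 28.32 CPM in astrocyte EVs, where 0 of 182075 counts allows up to 16.48 CPM before TMM scaling, and 563.3, 1981 and 1497 CPM in NSC EVs. The lowest NSC EV library was 8.60 times the highest astrocyte EV library, and the 3p arm ranked number 99, 45 and 55 among the mature miRNAs of NSC EVs.

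The means of miR-9-3p were 31.3 ± 32.9 CPM in astrocyte EVs and 1347 ± 721 CPM in NSC EVs (SD, n = 3 each). It passed the test, with a log2 fold change of -5.42 (SE 1.09, edgeR adjusted p = 0.00666), as did the 25.8% of mature miRNAs that were lower in astrocyte EVs. Its astrocyte EV counts alone fell short of the count filter before the test, so it entered through NSC EVs, where it was high. This limit holds for the fits that left out a library as well. Leaving out each library in turn gave log2 fold changes between -6.34 and -4.77 and edgeR adjusted p between 0.00177 and 0.0380, so that the call did not rest on any 1 library. The whole difference rests on 22 counts in astrocyte EVs against 851 in NSC EVs.

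How the arms were used was compared within each library, where scaling between libraries drops out. The 3p arm made up 0%, 3.24% and 0.0587% of the counts of both arms in astrocyte EVs, and 0.542%, 1.47% and 1.52% in NSC EVs. The astrocyte EV libraries lay on both sides of all 3 NSC EV libraries. In replicate 1, 0 of 262 counts allows a 3p share of up to 1.15%, which includes a share like that of NSC EV replicate 1 (0.542%). In replicate 2 the 95% Wilson interval was 1.90 to 5.47% (13 of 401 counts) and lay above the intervals of all 3 NSC EV libraries, which ran from 0.466% at the lowest to 1.72% at the highest. In replicate 3 it was 0.0309 to 0.111% (9 of 15338 counts) and lay below them.

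Expressed as counts of the 5p arm for each count of the 3p arm, replicate 2 of the astrocyte EVs stood at 29.8 and replicate 3 at 1703, against 183, 66.8 and 64.9 in the NSC EVs. Astrocyte EV replicate 3 thus held many 5p counts with hardly any 3p counts, a combination that no NSC EV library had. The 3p share averaged 1.10 ± 1.86% over the astrocyte EV libraries and 1.18 ± 0.551% over the NSC EV libraries (SD, n = 3 each), a difference of -0.0777 percentage points that was smaller than the spread within either group (exact two-sided permutation p = 1). Its sign turned without astrocyte EV replicate 1 (0.472) or 3 (0.443) and without NSC EV replicate 2 (0.0703) or 3 (0.0921). Among 77 pairs of arms with at least 20 counts in each library the shares of the groups did not overlap in 32.5%, and miR-9 was among the pairs that overlapped.

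**Figure D2:**
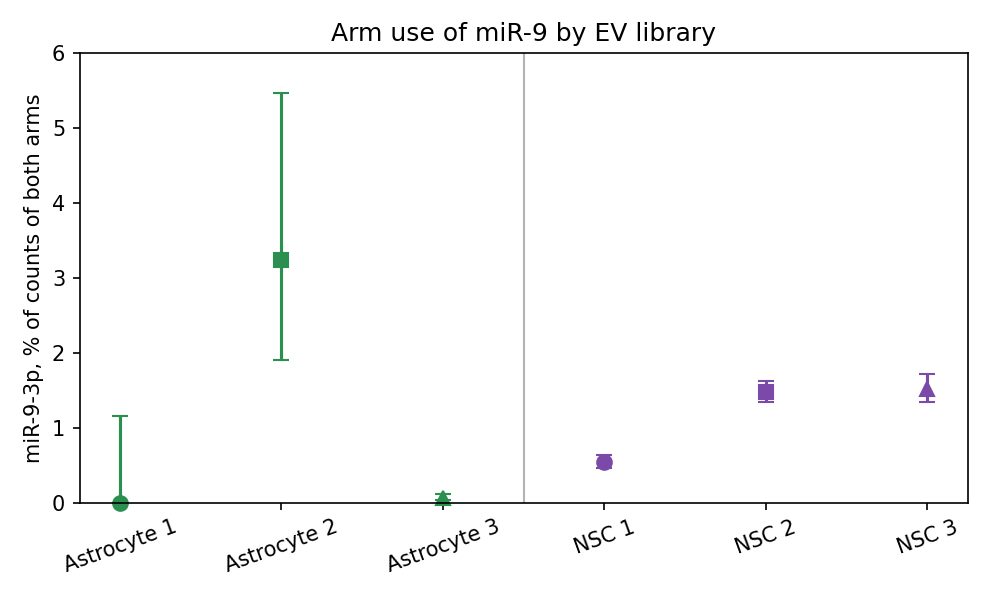
miR-9-3p as a percentage of the counts of both miR-9 arms in each EV library, with 95% Wilson intervals that cover counting error only (for astrocyte EV replicate 1, with 0 counts, the bar ends at the limit of 1.15%). Astrocyte EV replicate 2 (3.24%) is above and astrocyte EV replicate 3 (0.0587%) below the NSC EV libraries (0.542 to 1.52%).

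The hairpin rows were read to ask which locus the counts came from. mmu-mir-9-1, mmu-mir-9-2 and mmu-mir-9-3 had 262 counts each in astrocyte EV replicate 1, 401 each in astrocyte EV replicate 2, and 15341, 15339 and 15338 in astrocyte EV replicate 3. In NSC EVs they had 30970, 30975 and 30982 counts in replicate 1, 29926, 29921 and 29923 in replicate 2, and 15950, 15964 and 15948 in replicate 3. In every library the 3 rows were thus nearly equal to each other. They were also nearly equal to the sum of the 2 arms: of 18 values (3 hairpins in 6 libraries) 10 had exactly that sum, and the others differed from it by -5 to 16 counts.

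Each locus held between 33.32 and 33.35% of the hairpin counts in every library, and exact two-sided permutation tests of these shares between EV types gave p = 0.3 for mmu-mir-9-1, 0.9 for mmu-mir-9-2 and 0.8 for mmu-mir-9-3. The 3 rows repeat the same arm counts, as the shared sequences printed above allow, so these files do not show how much each locus contributed. As 3 copies of 1 measurement, the hairpins had log2 fold changes of -2.51, -2.52 and -2.52 (SE 1.34, edgeR adjusted p = 0.159 each), where 47.3% of the 258 hairpins tested passed in either direction. Without astrocyte EV replicate 3 each was at -6.08 (edgeR adjusted p = 2.63e-06).

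The long non-coding RNA that hosts mmu-mir-9-3 had its own row, AI854517, an older name that RefSeq lists for Mir9-3hg, which covers chr7:79500026-79534403 and so includes the hairpin. AI854517 had 986, 1243 and 17431 counts in astrocyte EVs, against 31768, 30671 and 16828 counts in NSC EVs. The counts of the mmu-mir-9-3 hairpin row came to 26.6, 32.3 and 88.0% of it in astrocyte EVs against 97.5, 97.6 and 94.8% in NSC EVs. The row as deposited was lower in astrocyte EVs, with a log2 fold change of -3.01 (SE 0.76, edgeR adjusted p = 0.0453), against the 9.78% of rows other than hairpins that passed in either direction. The call was lost when any 1 library other than astrocyte EV replicate 3 was left out (log2 fold changes of -3.24 to -2.62, edgeR adjusted p from 0.0735 to 0.127).

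With the hairpin counts subtracted, a calculation added after the data were seen, AI854517 had 724, 842 and 2093 counts in astrocyte EVs and 786, 748 and 880 counts in NSC EVs. As CPM of the counts outside the hairpin rows these were 8.45, 11.7 and 18.8 in astrocyte EVs and 16.5, 16.9 and 17.4 in NSC EVs, so that the groups overlapped. Astrocyte EV replicate 3 was the highest of all 6 libraries and astrocyte EV replicate 1 the lowest. The remainder did not pass the test (log2 fold change 0.13, SE 0.29, edgeR adjusted p = 0.802), and its direction turned without TMM scaling (-0.38, adjusted p = 0.718). A second deposited row of AI854517, at chr7:79515435-79534403, lies within the first and past the hairpin. It had 650, 721 and 1926 counts in astrocyte EVs and 750, 549 and 750 counts in NSC EVs, and did not pass either (log2 fold change 0.20, SE 0.31, edgeR adjusted p = 0.714).

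C130071C03Rik, the host of mmu-mir-9-2, had few counts, 22, 36 and 118 in astrocyte EVs and 23, 24 and 32 in NSC EVs. Its row covers chr13:83728106-83735669, which ends before the hairpin and does not cover it. It did not pass the test (log2 fold change 0.52, SE 0.40, edgeR adjusted p = 0.422), and its antisense row, at 11, 19 and 151 counts in astrocyte EVs and 17, 10 and 32 in NSC EVs, was again highest in astrocyte EV replicate 3.

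**Figure D3:**
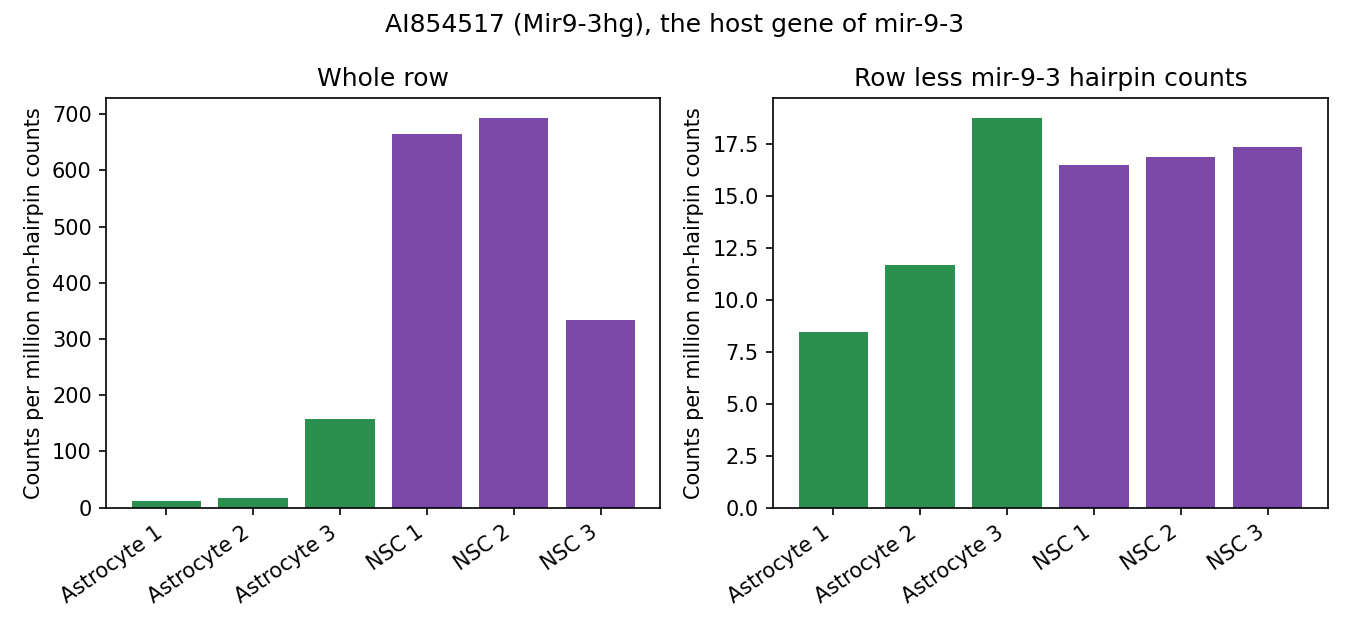
CPM of the counts outside the hairpin rows for AI854517 (Mir9-3hg), the host gene of mmu-mir-9-3, as deposited (left) and less the counts of the hairpin row (right), with 1 bar per EV library and separate linear axes from 0. The whole row is highest in NSC EVs, whereas the remainder is 8.45 to 18.8 in astrocyte EVs, against 16.5 to 17.4 in NSC EVs.

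Markers of other cells also separated astrocyte EV replicate 3 from replicates 1 and 2. The 6 mesenchymal miRNAs listed, which fibroblasts and muscle express, took 10.6, 9.32 and 0.527% of mature counts in astrocyte EVs, with 6, 6 and 5 of them detected, against 0.214, 0.109 and 0.0785% in NSC EVs, where miR-199a-3p and miR-199b-3p, whose counts were equal, were taken once (15.2, 13.4 and 0.744%, against 0.323, 0.160 and 0.104%, with both summed). Among astrocyte EVs they were thus lowest in the library in which miR-9-5p was highest. The 5 red blood cell miRNAs, all detected in each astrocyte EV library, took 2.25, 3.88 and 8.11% there, against 0.188, 0.102 and 0.107% in NSC EVs, with miR-486a-5p and miR-486b-5p, whose counts lay within 1% of each other, taken once (4.43, 7.64 and 16.1%, against 0.376, 0.203 and 0.213%, with both summed). With these miRNAs left out of the total, miR-9-5p took 1.64 ± 2.54% in astrocyte EVs against 11.8 ± 2.82% in NSC EVs (SD, n = 3 each). Their part in the level of miR-9 was not tested.

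The 5 neuronal miRNAs took 0.1, 0.0821 and 0.280% of mature counts in astrocyte EVs, against 0.336, 0.389 and 0.243% in NSC EVs. In astrocyte EV replicate 3 this sum was mostly miR-129-5p, with 1007 counts there against 21 and 13 in replicates 1 and 2, whereas miR-124-3p, the defining miRNA of neurons, had 0 counts in all 3 astrocyte EV libraries. The 2 endothelial miRNAs took 0.00551 to 0.0181% in astrocyte EVs, against 0.0853 to 0.199% in NSC EVs. The 3 oligodendrocyte miRNAs were at or below 0.01% in every library. The 4 miRNAs of microglia and white blood cells took 0.0187, 0.0668 and 0.023% in astrocyte EVs, against 0.00809, 0.0157 and 0.0107% in NSC EVs. Of these, 2 were tested, where 48.0% of all mature miRNAs tested passed. miR-142a-5p was higher in astrocyte EVs (log2 fold change 3.15, edgeR adjusted p = 0.0145), through whose counts it passed the filter before the test. miR-150-5p was lower, with 0 counts in every astrocyte EV library (edgeR adjusted p = 0.00666). It entered the test through NSC EVs alone and could only come out lower. Whether any of these cells contributed miR-9 was not tested.

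**Figure D4:**
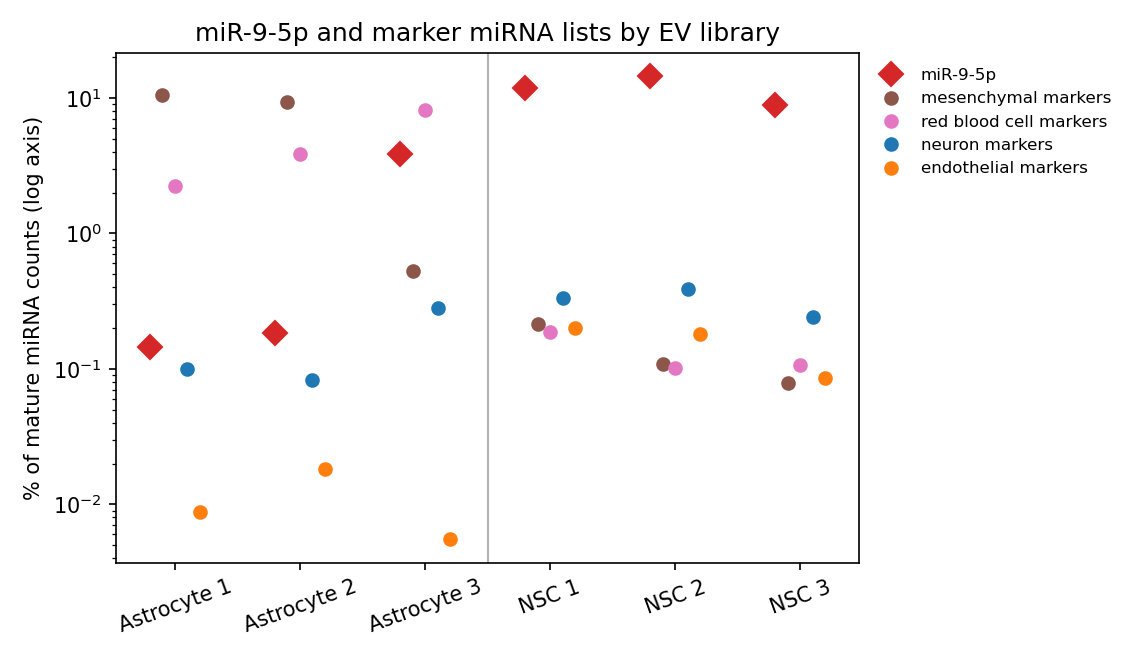
Share of mature miRNA counts on a log axis for miR-9-5p (diamonds) and for the summed miRNAs of 4 marker lists (circles, with miRNAs of near-equal counts taken once), by EV library. In astrocyte EV replicate 3 miR-9-5p (3.84%) lies above and the mesenchymal list (0.527%) below their values in the other astrocyte EV libraries.

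By the ratio of astrocyte EV replicate 3 to replicates 1 and 2, some other miRNAs stood higher than miR-9-5p. Set against the mean of replicates 1 and 2 (with 1 CPM added to both), miR-9-5p in replicate 3 was 30.1 times as high and number 7 of the 200 tested miRNAs that reached 100 CPM in an astrocyte EV library, whereas miR-9-3p was at 0.869 times and the median of all 256 tested miRNAs was 0.999. The first 5 are high in replicate 3 by this choice, and among astrocyte EVs they reached 100 CPM in that library alone. They included miR-449a-5p, known from multiciliated cells, with 4, 16 and 2495 counts in astrocyte EVs and 307, 232 and 119 in NSC EVs. miR-488-3p had 0, 0 and 191 counts in astrocyte EVs and 280, 118 and 128 in NSC EVs. miR-92b-5p had 0, 0 and 383 counts in astrocyte EVs and 54, 5 and 48 in NSC EVs. The other two in the first 5, miR-195a-5p and miR-5110, had 38 and 262 counts in astrocyte EV replicate 3 and at most 4 in the other astrocyte EV libraries.

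Other miRNAs were ranked by how like miR-9-5p their profile over the 6 libraries was. Those at the top share its low pair of astrocyte EV libraries by this choice. On log2(CPM + 1), Pearson's r over 255 other miRNAs was highest for miR-335-3p (0.993), miR-384-5p (0.990), miR-6540-5p (0.988), miR-488-3p (0.984) and miR-5099 (0.979). The first 4 of these had 0 counts in astrocyte EV replicates 1 and 2. In astrocyte EV replicate 3 they had only 16, 13 and 9 counts, and 191 for miR-488-3p, in the order given. miR-5099 had 22, 22 and 407 counts in astrocyte EVs and 1370, 602 and 841 in NSC EVs. The 3p arm stood only at rank 46 on this list (r = 0.822, Spearman's rho 0.886). These coefficients describe 6 libraries in 2 groups that share their depth and scaling, and are given without a test.

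The nearest profiles to miR-9-3p were other miRNAs. They were miR-708-3p (r = 0.985), miR-132-3p (0.983), miR-598-3p (0.972), miR-335-5p (0.965) and miR-30e-3p (0.964). miR-30e-3p, the most abundant of these in NSC EVs, had 64, 110 and 153 counts in astrocyte EVs and 334, 416 and 315 in NSC EVs, without a high value in astrocyte EV replicate 3.

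Other miRNAs known from neurogenesis were mostly lower in astrocyte EVs, and they lacked the high value of miR-9-5p in replicate 3. Of 16 such miRNAs, all tested, 12 were lower in astrocyte EVs and 2 higher, and 2 did not pass the test, where 25.8% of all 256 mature miRNAs tested were lower and 48.0% passed in either direction. The list had a median log2 fold change of -2.96 against -0.06 for all of them. It was chosen with earlier results of these data known, so its counts and median only describe these libraries. Its 3 members at 0 counts in every astrocyte EV library entered the test through NSC EVs alone and could only come out lower. miR-137-3p, miR-106b-5p, miR-17-5p and miR-20a-5p also passed the filter through NSC EVs, where they were high. Of the 12, 8 passed with each library left out in turn. The 8 included the 3 members at 0 counts, miR-106b-5p, miR-17-5p and miR-20a-5p, so this number carries the same limit. The ratio of astrocyte EV replicate 3 to the mean of replicates 1 and 2 had a median of 1.04 over the 13 members with counts in astrocyte EVs (0.0945 to 2.57), and 0 of these 13 reached the ratio of miR-9-5p.

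miR-7a-5p, which represses Pax6, had 19, 16 and 27 counts in astrocyte EVs and 3078, 2308 and 1563 counts in NSC EVs (log2 fold change -6.88, SE 0.35, edgeR adjusted p = 2.87e-05). miR-128-3p, a miRNA of neurons and their progenitors, had 32, 34 and 40 counts in astrocyte EVs and 2738, 3610 and 1759 in NSC EVs (-6.33, SE 0.42, edgeR adjusted p = 0.000109). Both were as low in astrocyte EV replicate 3 as in replicates 1 and 2, unlike miR-9-5p. miR-17-5p and miR-20a-5p, of a cluster that promotes proliferation, had log2 fold changes of -4.78 and -5.45 (edgeR adjusted p = 0.00207 and 0.00159).

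3 members, miR-124-3p, miR-124-5p and miR-7b-5p, had 0 counts in every astrocyte EV library. Against a limit of 3 counts in each of these libraries astrocyte EVs held at least 28.7, 14.6 and 131 times less of them than NSC EVs. The members higher in astrocyte EVs were let-7d-5p (log2 fold change 0.98, edgeR adjusted p = 0.0338) and miR-34a-5p (2.58, edgeR adjusted p = 0.0337), and at most 1 of them passed with no TMM, with DESeq2 and in 5 of the 6 fits that left out a library. let-7b-5p (0.57) and miR-132-3p (-1.14) did not pass.

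**Figure D5:**
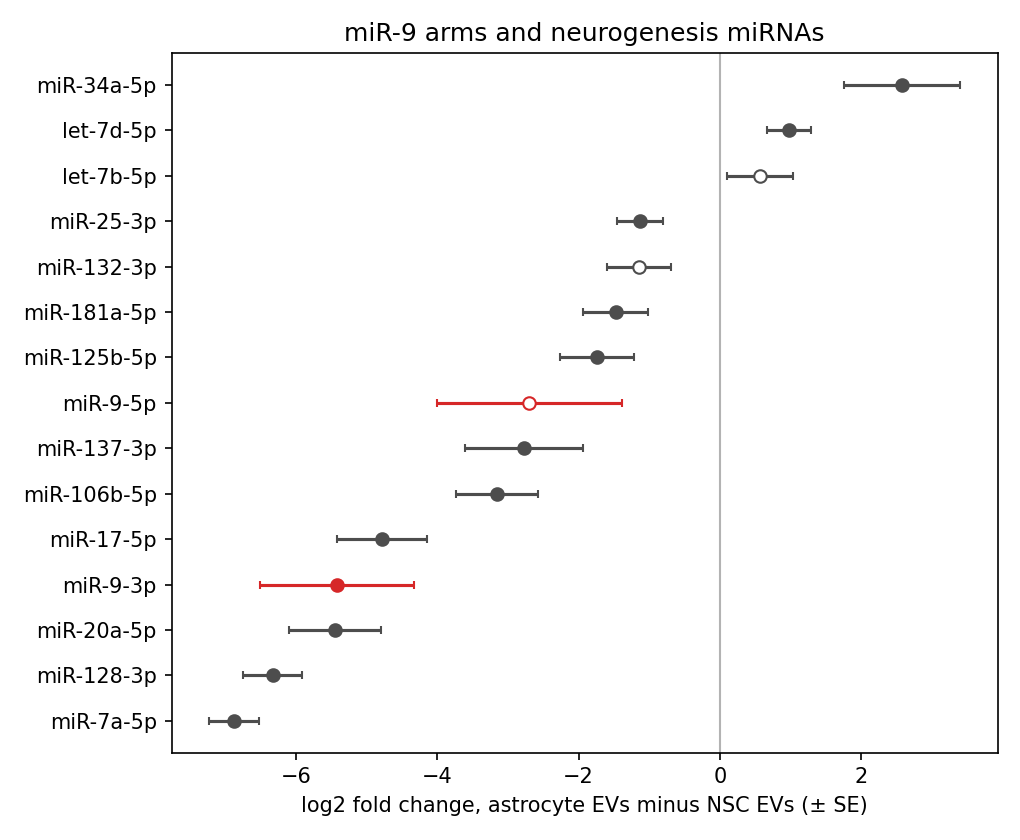
Log2 fold change (astrocyte EVs minus NSC EVs) with its SE for both miR-9 arms (red) and 13 neurogenesis miRNAs (grey), with filled symbols at an adjusted p under 0.05 by edgeR; the 3 members at 0 counts in all astrocyte EV libraries are left out, since their fitted fold depends on the prior count. miR-9-5p (-2.69) has an open symbol and a wide SE, and miR-9-3p (-5.42) a filled one.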

How the data were processed

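Small RNA of 3 astrocyte EV and 3 NSC EV libraries was analysed from 1 table of whole-number counts, which the authors deposited without normalization. Per the submitters' processing notes the tools were Bowtie, Bowtie2, DESeq, cutadapt, FastQC, bedtools and SAMtools and the mouse build was mm10, with no versions or roles; the Banana Slug Analytics Platform is also named in the study's methods. The treatment of strand and of reads with several possible loci was not given in the sources used here. A read may add to a mature, a hairpin and a gene row. The sources differ on the library kit and sequencer (Illumina kit and HiSeq, or CleanTag kit and NextSeq), and EV isolation is described in detail only for astrocyte cultures. No unique molecular identifiers are mentioned, so intervals cover counting error only. The authors' other deposited tables hold group means, log2 fold changes and adjusted p-values and were not used.

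Mature rows, hairpin rows and all rows other than hairpins were each fitted in edgeR 4.0.16 (R 4.3.3) with TMM, filterByExpr by group, glmQLFit and glmQLFTest, and Benjamini-Hochberg adjustment over all rows tested; a call is an adjusted p under 0.05. SE is the log2 fold change divided by the root of the F statistic. TMM factors of the mature rows were 0.796 to 1.16 and the biological coefficient of variation was 0.581. Shares have 95% Wilson intervals and exact two-sided permutation tests (SciPy 1.17.1). Sequences are from RefSeq and GENCODE gave gene positions. All 6 columns were matched to libraries by name, and the fits were tested on simulated data.

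Members and lists were chosen with earlier results of these data known. The miRNAs named are both arms, members of the neurogenesis, marker and target lists, the 5 miRNAs most like each arm in Pearson's r, and the 5 with the highest ratio of astrocyte EV replicate 3 to the mean of replicates 1 and 2; miRNAs of muscle and liver, also listed, summed to 0.209 to 0.595% of mature counts. The alternatives were no TMM, library sizes from all rows other than hairpins, DESeq2 (1.42.0) and its size factors, no filter, a minimum of 10 counts, robust fitting, identical rows taken once, red blood cell miRNAs left out, a replicate block and each library left out. The host row less its hairpin, the block for gene rows and hairpins, the scaling and filter alternatives for the neurogenesis list, and marker sums with near-equal rows taken once were added after the data were seen.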

Additional observations from a re-analysis of the deposited data

How the results depend on the processing

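miR-9-3p was lower in astrocyte EVs under every alternative tried. miR-9-5p kept its direction but passed with library sizes from all rows other than hairpins (-3.47, adjusted p = 0.0398, a scaling that moved the median of all mature miRNAs to -0.92, against -0.06), with no filter (-2.83), with DESeq2 (-2.75) and without astrocyte EV replicate 3, and leaving out each library gave -6.30 to -1.98. DESeq2 gave -2.74 for each hairpin (adjusted p = 0.0136, so that they passed), and leaving out each library -6.08 to -1.89. The labels' replicate numbers were not shown to pair the libraries: deviations of same-numbered libraries correlated at r = 0.0618, 0.135 and 0.0746, although each library correlated best with its own number. With the replicate block miR-9-5p was at -4.87 (edgeR adjusted p = 0.0316), each hairpin at -4.80 (0.0879), AI854517 at -3.60 (0.0720), 1 neurogenesis miRNA was higher, and 0 target gene rows were higher and 0 lower. Leaving out each library gave AI854517 values of -4.36 to -2.62 and a difference in 3p share of -1.15 to 0.472 percentage points. Of the neurogenesis miRNAs, 2 were higher, against 1 with no TMM, no filter, a minimum of 10 counts or DESeq2, 0 with library sizes from all rows other than hairpins, and 0 to 2 with each library left out. Target gene rows higher numbered 1, against 0 with no TMM, and 0 to 1 with each library left out, while those lower numbered 1, against 0 with any library left out. Without TMM the median of all gene rows moved to -0.54, against -0.04, and AI854517 less its hairpin was at -0.38. Over all mature miRNAs 57 were higher, against 32 with library sizes from all rows other than hairpins and 34 without NSC EV replicate 2. The cause of these changes was not tested. The low 3p counts of astrocyte EVs limit any statement on arm use there.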

Other observations

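Fragments of the mRNAs that miR-9 is known to repress were also counted in these EVs. Of 14 such genes, 12 had enough counts to be tested, and 1 was higher, 1 was lower and 10 did not pass, where 9.78% of the 41308 rows other than hairpins passed in either direction and 4.24% were lower. The median log2 fold change was -0.01, against -0.04 for all these rows. Nr2e1, a nuclear receptor that keeps neural stem cells dividing, had 178, 206 and 986 counts in astrocyte EVs and 60, 90 and 70 counts in NSC EVs. As CPM (counts per 1000000) of the counts outside the hairpin rows these were 2.08, 2.86 and 8.86 in astrocyte EVs and 1.26, 2.04 and 1.38 in NSC EVs. Replicate 1 of the astrocyte EVs was thus close to replicate 2 of the NSC EVs. Its log2 fold change was 1.96 (SE 0.38, edgeR adjusted p = 0.0239), and the call was lost without TMM (1.56, adjusted p = 0.144) and when any library other than astrocyte EV replicate 3 or NSC EV replicate 2 was left out (adjusted p from 0.0563 to 0.0799).

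Stmn1, which destabilises microtubules, had 32, 31 and 47 counts in astrocyte EVs and 91, 246 and 79 counts in NSC EVs, and its log2 fold change was -2.15 (SE 0.52, edgeR adjusted p = 0.0414). The call was lost with any 1 library left out (adjusted p from 0.0520 to 0.126). Map1b, a microtubule-associated protein, had 316, 373 and 620 counts in astrocyte EVs and 663, 738 and 832 counts in NSC EVs and did not pass (-1.10, edgeR adjusted p = 0.0668). Rest, a repressor of neuronal genes, did not pass either (0.77, edgeR adjusted p = 0.202). Hes1 and Gsx2 had too few counts to be tested.

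miR-449c-5p, chosen after its values were seen, was not tested because too few libraries held it: it had 0, 0 and 3681 counts in astrocyte EVs and 12, 0 and 7 counts in NSC EVs. As for miR-9-5p and miR-449a-5p, replicate 3 was by far the highest of the astrocyte EV libraries.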
